A study of Homo sapiens with 4 samples.

Results

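The 9 genes described here carry the core of receptor-driven and mitochondrial cell death, and were listed by name: the receptors FAS, TNFRSF10A and TNFRSF10B, the ligand TNFSF10, the adaptor FADD, the inhibitor CFLAR, the initiator caspases CASP8 and CASP9, and the cytochrome c gene CYCS. All 9 were found in the gene annotation, among 20033 protein-coding genes on the main chromosomes. The data are peak lists of the transcription factor IRF3 from chromatin immunoprecipitation sequencing (ChIP-seq) in MM1.S, an established human multiple myeloma line, cultured without treatment. There were 2 IRF3 ChIP libraries, each called by the authors against its own input library, and 1 condition, so no comparison between conditions can be made. No IgG or IRF3-deficient control was analysed here. The labels do not state whether the libraries were grown separately, and their spread may thus be only technical. Peak calling used 38568845 and 46474586 ChIP tags in replicates 1 and 2.

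Death ligands bind receptors of the tumour necrosis factor family on the cell surface. The receptors recruit FADD and caspase-8 into a signalling complex that activates caspase-8, and the caspase-8 homologue c-FLIP, encoded by CFLAR, restrains that step. In the mitochondrial branch, cytochrome c released into the cytosol takes part in the assembly that activates caspase-9. IRF3 is best known as a signal-activated factor of antiviral responses, and in many resting cell types most of it is held in the cytoplasm. TNFSF10, which encodes the ligand TRAIL, is a well-known interferon-inducible gene in other settings.

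A peak was assigned to a gene when its summit lay inside the gene span or within 10 kb of it, a stretch called the window here. A region was called shared when peaks of both replicates overlapped in it by at least 1 bp. Fold enrichment is the authors' own value for each peak, the ratio of ChIP signal to local input background at the summit. Of the shared regions of the genome, 32246 in all, 28 lay in the windows of the 9 genes and none lay in the windows of 2 of them at once.

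To show part of the sequence under the regions described below, 6 promoter windows are printed from the RefSeq promoter table (GRCh38.p14). The summits of both replicates at these starts lay downstream of the printed bases. They ranged from 31 bp past the start at CYCS to 572 bp past the second start of CASP8. Each is read 5′ to 3′ on the strand of the gene, from 250 bases before an annotated start to 10 bases into the transcript. CYCS has the strongest region of the set. CASP8 is shown at all 3 of its listed starts, because each had a shared region. FADD has a strong region at a single start, and TNFSF10 holds an interferon-type core upstream of its start. Capitals mark matches to the motif letters given after the sequences.
CYCS (chr7:25125251-25125510, minus strand): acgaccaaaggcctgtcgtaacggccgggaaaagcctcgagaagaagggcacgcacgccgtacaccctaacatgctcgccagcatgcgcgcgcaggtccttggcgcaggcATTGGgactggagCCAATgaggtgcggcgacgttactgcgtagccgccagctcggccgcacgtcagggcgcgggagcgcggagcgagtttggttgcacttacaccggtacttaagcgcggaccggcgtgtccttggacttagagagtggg
FADD (chr11:70203046-70203305, plus strand): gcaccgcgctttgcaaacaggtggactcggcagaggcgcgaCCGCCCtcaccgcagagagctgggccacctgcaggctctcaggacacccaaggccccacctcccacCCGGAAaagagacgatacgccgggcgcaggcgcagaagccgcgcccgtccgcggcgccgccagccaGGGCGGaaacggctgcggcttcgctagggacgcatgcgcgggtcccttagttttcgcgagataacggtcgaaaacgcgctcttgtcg
CASP8, the first start (chr2:201233213-201233472, plus strand): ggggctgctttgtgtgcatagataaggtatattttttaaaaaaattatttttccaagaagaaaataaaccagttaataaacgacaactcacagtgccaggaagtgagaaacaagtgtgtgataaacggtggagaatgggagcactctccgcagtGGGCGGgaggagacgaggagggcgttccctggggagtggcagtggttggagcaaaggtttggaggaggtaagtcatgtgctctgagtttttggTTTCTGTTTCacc
CASP8, the second start (chr2:201257785-201258044, plus strand): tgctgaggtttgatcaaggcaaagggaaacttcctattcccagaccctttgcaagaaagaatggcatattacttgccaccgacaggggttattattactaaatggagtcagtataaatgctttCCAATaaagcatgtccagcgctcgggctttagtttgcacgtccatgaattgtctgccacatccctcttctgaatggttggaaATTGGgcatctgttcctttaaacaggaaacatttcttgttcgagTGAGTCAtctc
CASP8, the third start (chr2:201260286-201260545, plus strand): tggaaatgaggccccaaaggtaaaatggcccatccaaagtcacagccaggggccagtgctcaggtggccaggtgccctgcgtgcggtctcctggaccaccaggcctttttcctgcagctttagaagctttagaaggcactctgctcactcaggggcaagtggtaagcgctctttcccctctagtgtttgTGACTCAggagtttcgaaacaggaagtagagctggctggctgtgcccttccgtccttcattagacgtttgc
TNFSF10 (chr3:172523421-172523680, minus strand): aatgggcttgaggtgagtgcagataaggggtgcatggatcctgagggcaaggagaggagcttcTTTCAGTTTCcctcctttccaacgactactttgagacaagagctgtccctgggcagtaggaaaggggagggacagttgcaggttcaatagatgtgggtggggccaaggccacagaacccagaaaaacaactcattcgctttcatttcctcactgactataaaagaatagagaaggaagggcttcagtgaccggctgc

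The letters were searched on both strands, in the full 300-base windows that end 50 bases after each start. Sequence outside these windows, which includes that at most summits of the printed starts, was not searched. The core of the interferon-stimulated response element was taken as GAAA, any 2 bases and GAAA again. The NF-kB letters were GGG, any 2 bases and TTTCC. The other motifs were CCGGAA for ETS factors, GGGCGG for SP1, the CCAAT box, TGANTCA for AP-1 and CACGTG for the E-box. Copies that overlapped each other were each counted. The table held 15 windows for 7 of the 9 genes, and windows of neighbouring FAS starts overlap in part. TNFRSF10A and TNFRSF10B were not matched to it. The windows of the CFLAR starts after the first, and of the outer CASP9 start, overlapped no shared region. They are included in the counts below.

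The interferon-type core was present in 2 of the 15 windows, against 3.57% of the 35116 windows of the table. In TNFSF10 it read GAAACTGAAA on the opposite strand and began 187 bp before the start, with its middle 224 bp from the replicate 1 summit and 266 bp from the replicate 2 summit. In CASP8 it read GAAACAGAAA on the opposite strand and began 3 bp before the first start, 110 and 94 bp from the summits. The CYCS window, under the strongest region, held none of these cores and had 2 CCAAT boxes. CCAAT boxes were found in 3 of the 15 windows, against 34.6% of all windows. SP1 boxes were found in 9 of the 15, in 5 of the 7 genes, against 45% of all windows, and the CASP9 windows held 8 and 9 copies. The overlapping windows of the first 2 FAS starts held the same copy. TGANTCA was present in 5 windows against 7.71% of all, CCGGAA in 2 against 17.2%, and the NF-kB and E-box letters in none against 1.91% and 7.26%. A match describes the letters of the window and is not a measured binding site. Base composition differed widely between windows of strongly bound starts. The CYCS window had 37 CpG dinucleotides and 64.7% G and C, and that of FADD 36 and 66.7%, whereas the 3 windows of CASP8 had 6, 5 and 6. The median window of the table had 14 CpG dinucleotides and 58.7% G and C.

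IRF3 regions were present at nearly all of these genes, but strong ones only at some. All 9 genes had at least 1 shared region in their window, against 69.3% of protein-coding genes. At an annotated start, with the summit within 1 kb, 8 of the 9 had a shared region, against 51.5% of protein-coding genes. With a fold enrichment of at least 5 in both replicates, 3 of the 9 remained at a start, namely FADD, CASP8 and CYCS, against 29.4% of protein-coding genes. Over the whole window 4 of the 9 reached that level, CFLAR being added, against 42.7%. The last 2 shares lie near the background. For the 2 genes on chromosome 8 and for 4191 protein-coding genes in all, no strand or start was listed and either end of the span counted as a start. For CFLAR only the listed starts counted, although its strongest region lay 428 bp from the 5′ end of its span.

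**Figure D1:**
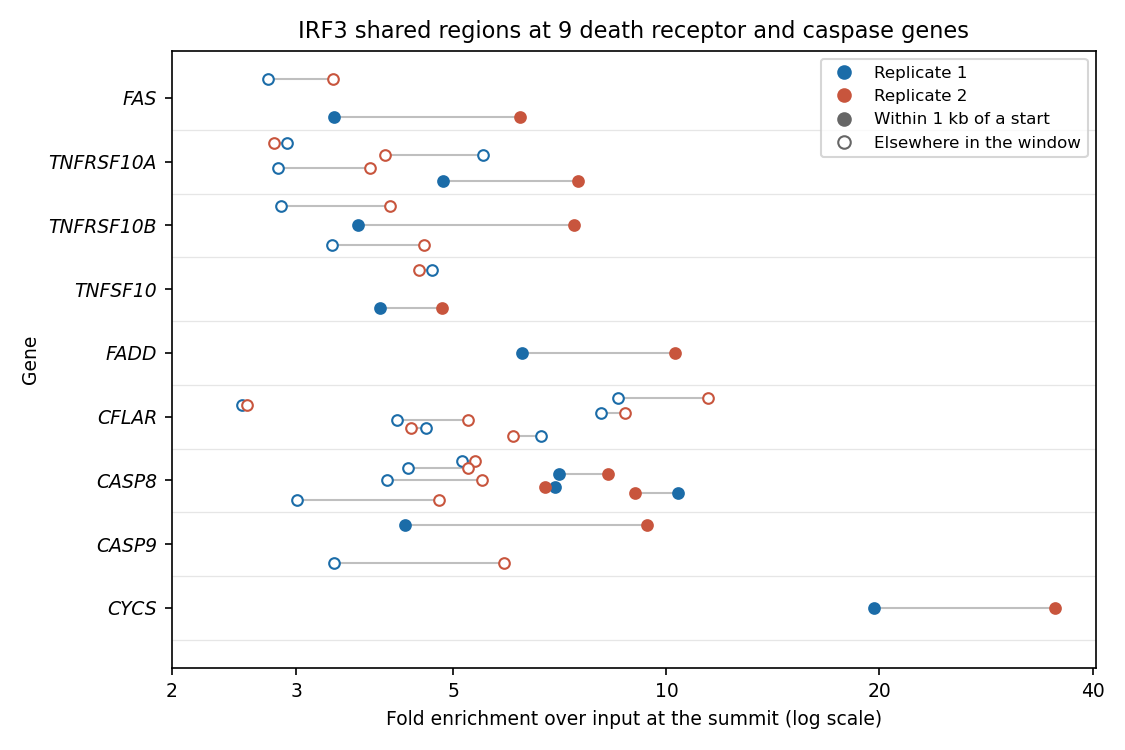
Fold enrichment over input (log axis) of each of the 28 shared regions, with replicate 1 in blue and replicate 2 in red joined by a line, by gene. Filled points lie within 1 kb of a start, and the CYCS region, at 19.6 and 35.4, stands to the right of all others.

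Among the receptors, FAS, the receptor of Fas ligand, had the weakest region at a start. Its region (chromosome 10, 88990369 to 88991790) reached a fold enrichment of 3.39 in replicate 1 and of 6.21 in replicate 2. The region spans all 3 of its listed starts. Replicate 1 split it into 2 peaks of 2.11 and 3.39, with summits 222 bp and 138 bp from the nearest start, while replicate 2 had 1 peak with its summit 36 bp from a start. The summits of the strongest peaks lay 735 bp apart, so FAS lost its start region when summits had to lie within 100 bp of each other, as did TNFRSF10A, whose summits lay 207 bp apart. FAS also lost all of its regions when both replicates had to reach a −log10 q of 10. The start region had 9.65 in replicate 1 against 22.8 in replicate 2, and the other FAS region had 7.58 and 9.81. The end of ACTA2, which encodes smooth muscle actin, lay 232 bp from the replicate 1 summit and 503 bp from the replicate 2 summit, and peak positions alone cannot assign the region to either gene. A second FAS region, 3293 bp before the first start, had 2.73 and 3.38. The end of ACTA2 was 3839 bp from its summit, nearer than either end of the FAS span. The same held for the FAS start region, whose replicate 2 summit lay 26225 bp from the closest end of that span. FAS was thus the gene left without a region in its window when regions nearer to another gene were left out. That setting compared span ends and did not use the listed starts. In both replicates each FAS region was nearer to a listed FAS start than to the end of ACTA2. For the second region these distances were 3300 and 3839 bp in replicate 2.

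TNFRSF10A and TNFRSF10B encode the TRAIL receptors DR4 and DR5, which signal death on binding the TNFSF10 product. TNFRSF10A had fold enrichments of 4.84 and 7.51 at the higher-coordinate end of its span (chromosome 8, 23224183 to 23225699), with summits 176 and 31 bp from that end. TNFRSF10B had 3.67 and 7.41 at the same end (23068305 to 23069516), with summits 60 and 159 bp from it. Both receptors thus had a shared region at a single end of the gene. Replicate 2 alone also had a peak 894 bp beyond the lower end of TNFRSF10B, with a fold enrichment of 4.94. TNFRSF10A had 3 further shared regions. The region 5.23 kb inside that end was stronger in replicate 1, at 5.51, than the 4.84 of the end itself, and had 4.00 in replicate 2. The other 2 had 2.83 and 3.82, 3.73 kb inside that end, and 2.91 and 2.79 beyond the opposite end. TNFRSF10B had 2 further regions, both outside its span. One lay 5608 bp beyond its higher-coordinate end, with 3.37 and 4.54, and the other 1549 bp beyond the lower end, with 2.86 and 4.06, where an end of RHOBTB2 was 1615 bp away.

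The ligand gene TNFSF10 had fold enrichments of 3.94 and 4.82 at its start (chromosome 3, 172522937 to 172523715), with summits 41 and 84 bp into the transcript. A region of like strength lay inside the gene, with 4.67 and 4.48 (172512278 to 172512992) and its summits 10.8 and 10.9 kb downstream of the start. In replicate 1 the inner region was the higher and in replicate 2 the start, so the order of the pair was not stable. Both summits at the start lay downstream of the printed interferon-type core. No peak of a single replicate was found in the TNFSF10 window.

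FADD, the adaptor that links death receptors to caspase-8, had 1 peak in each replicate and no other in its window. Fold enrichment was 6.26 and 10.3 (chromosome 11, 70202882 to 70204423), with pileups of 130 and 152 fragments at the summits. Those summits lay 82 and 146 bp downstream of its single listed start. Among all shared regions this one stood at percentile 78.6 in replicate 1 and 87.1 in replicate 2, 100 being the strongest.

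CFLAR, which encodes the caspase-8 inhibitor c-FLIP, had the longest regions of the set and no summit of a shared region within 1 kb of a listed start. Its first region ran over 5054 bp (chromosome 2, 201115677 to 201120730) and had fold enrichments of 8.54 and 11.5. It covered the first listed start, but the summits lay 2095 and 2124 bp upstream. They were near the lower end of the annotated span, the 5′ end of this plus-strand gene, which was 428 bp away. When either end of the span counted as a start, CFLAR therefore gained a start region, while FAS, whose listed starts lie inside its span, lost its own. A further region of 4830 bp (201123272 to 201128101) had 8.10 and 8.74. Replicate 1 called it as a single peak and replicate 2 as 3 peaks of 8.28, 8.74 and 5.18. The summit of the 8.74 peak lay 1772 bp from that of replicate 1, the widest gap between strongest peaks among the 28 regions. The 8.28 peak had the higher pileup (154 against 99 fragments). Its summit, at 201124074, was close to the replicate 1 summit at 201124112. Regions of at least 3 kb made up 2 of the 28, both at CFLAR, against 1.25% of all shared regions. Farther along the gene, regions had 4.16 and 5.25 in the body and 4.57 and 4.36 near the opposite end. A weak region with 2.52 and 2.55 lay between the long ones. The last region of the window, with 6.66 and 6.08, had its summit 39 bp from an end of CASP10, a caspase gene that neighbours CFLAR, and is counted here only because of the 10 kb flank.

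CASP8, the initiator caspase of death receptors, had 7 shared regions, the most of the 9 genes, and a region at each of its 3 listed starts. At the first start (chromosome 2, 201232940 to 201234009) fold enrichment was 7.05 and 8.28, with summits 112 and 96 bp downstream. At the second start (201257003 to 201259248) it was 6.96 and 6.74, with summits 274 and 572 bp downstream. At the third start (201260094 to 201262054) it was 10.4 and 9.03, with summits 51 and 56 bp downstream. The third start thus had the highest fold enrichment in both libraries, and the pileups there were 205 and 154 fragments against 184 and 122 at the first start. The first start exceeded the second by little in replicate 1. The third start lies 27.1 kb downstream of the first, inside the gene. The remaining regions had 4.32 and 5.24 just upstream of the first start, 4.03 and 5.50 between the first and second starts, and 3.01 and 4.78 beyond the third. The seventh, with 5.15 and 5.37, lay 9.74 kb upstream, inside CASP10.

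CFLAR, CASP10 and CASP8 follow each other on chromosome 2. The stretch of 192 kb from the CFLAR window to the CASP8 window held 18 shared regions, of which 8 had a fold enrichment of at least 5 in both replicates. The CASP8 window alone held more shared regions than those of 97.5% of protein-coding genes, and the CFLAR window more than 96.3%. The 9 genes had a median of 2 shared regions in their windows, against 1 for all protein-coding genes. Per 10 kb of window the medians were 0.435 regions for the 9 genes and 0.187 for all. The median span of the 9 genes was 34.7 kb, against 24.1 kb for all, although TNFSF10 (17.9 kb), CYCS (6.61 kb) and FADD (4.10 kb) were shorter than that.

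**Figure D2:**
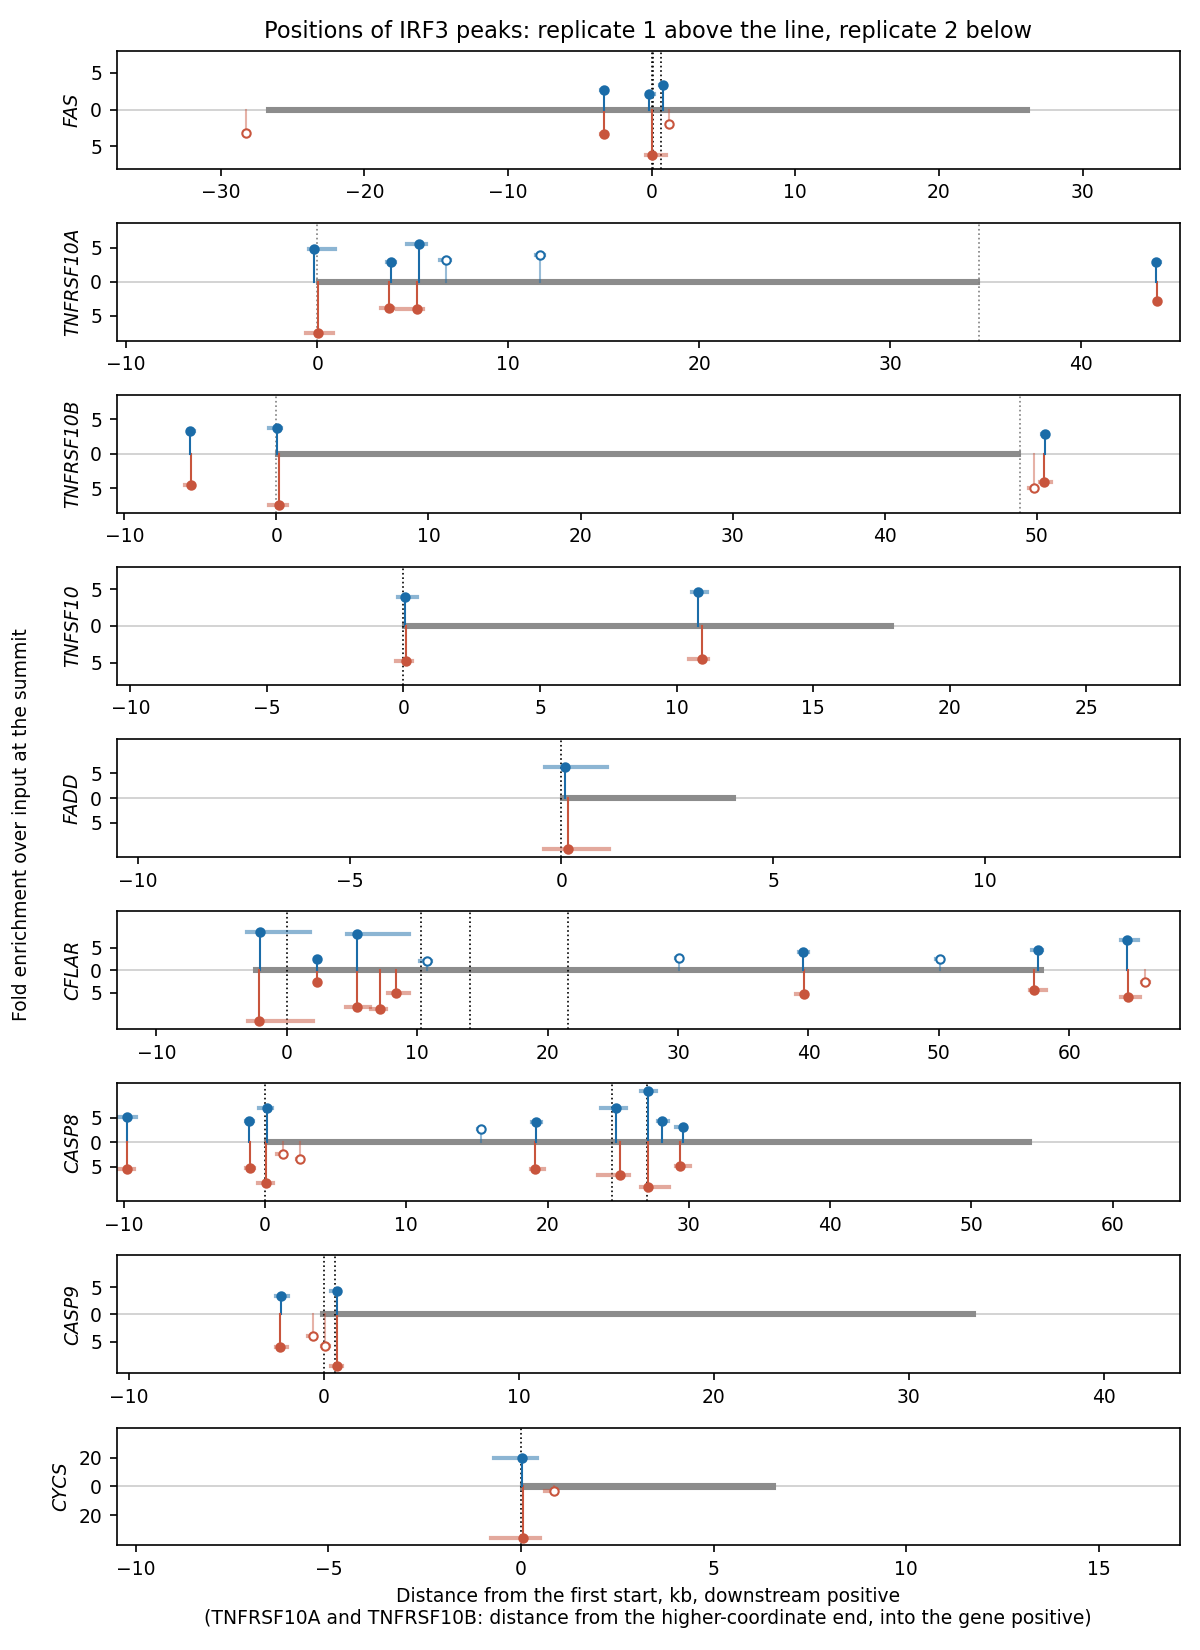
Fold enrichment over input of every peak in the windows against its distance from the first listed start in kb, with replicate 1 above and replicate 2 below the line. Filled circles are peaks of shared regions and open circles peaks of 1 replicate, horizontal bars give peak widths, grey bars the gene spans and dotted lines the listed starts (both ends of the span for TNFRSF10A and TNFRSF10B); the 3 starts of CASP8 each carry a peak in both replicates.

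CASP9, the initiator caspase of the mitochondrial branch, differed most between the libraries at its start. The region at the inner of its 2 listed starts (chromosome 1, 15523842 to 15524415) had 4.27 in replicate 1 and 9.37 in replicate 2, a log2 difference of 1.13, although the pileups were nearly equal at 97 and 95 fragments. At the outer start replicate 2 alone had a peak, with 5.86 and its summit 85 bp from that start, the highest fold enrichment among the peaks of a single replicate in these windows. Another shared region, with 3.39 and 5.89, had its summit 190 bp from an end of DNAJC16, a neighbouring gene of a DnaJ-type protein.

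CYCS, which encodes cytochrome c, an electron carrier of the respiratory chain and a trigger of caspase-9 activation once released, had by far the strongest region. Fold enrichment was 19.6 and 35.4 (chromosome 7, 25124768 to 25126046), and the pileups were 449 and 471 fragments. The summits lay 31 and 55 bp downstream of its single start. This region ranked at position 111 of the 32246 shared regions, a rank that takes the worse of the positions in the 2 replicates. The nearest end of another gene, SPMIP4, was 567 bp from the summit. Replicate 2 added a weak peak of 2.82 inside the gene, which replicate 1 lacked.

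Ordered by the best region at a start, the 8 genes with one fell into a top gene, a pair in the upper part and 5 below the middle. Among the 10321 protein-coding genes with such a region, ranked in the same way, CYCS stood at percentile 99.1, CASP8 at 72.1 and FADD at 65.6. TNFRSF10A followed at 42.2, CASP9 at 31.9, TNFSF10 at 25.4, TNFRSF10B at 20.9 and FAS at 15.6. The median percentile of the 8 was 37.0. CFLAR, without a region at a listed start, was not ranked. Its strongest region, with 8.54 and 11.5 near the 5′ end of its span, stood at percentile 94.1 among all shared regions. All 3 death receptors and the ligand were thus in the lower part of the ranking, while the strongest start was that of CYCS. CYCS led in both libraries. The order of the genes below it did not hold, since CASP8 exceeded FADD in replicate 1 (10.4 against 6.26) and not in replicate 2 (9.03 against 10.3). CASP9 was below TNFRSF10A in replicate 1 and above it in replicate 2.

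Fold enrichment over all 28 regions had a median of 4.30 in replicate 1 (range 2.52 to 19.6) and 5.43 in replicate 2 (2.55 to 35.4), against 4.28 and 4.94 over all shared regions. Both values reached 5 in 9 of the 28 regions, against 30.0% of all shared regions. The 10 regions at starts had medians of 5.55 and 7.89, and the 18 others 4.09 and 4.66. With only the best start region of each gene, the medians were 4.56 and 8.27 for the 8 genes with one. They were 5.55 and 8.50 for all 10321 protein-coding genes with one. Replicate 2 was the higher in 21 of the 28 regions, against 68.2% of all shared regions. The log2 ratio of replicate 2 to replicate 1 had a median of 0.68 at the 10 start regions, against 0.61 at the start regions of all protein-coding genes, and of 0.29 at the other 18, against 0.11. The ratio was thus higher at starts than elsewhere both in this set and in the genome, while 2 of the 3 CASP8 starts had log2 ratios below 0, of -0.05 and -0.20. Fold enrichment depends on antibody recovery and input depth, and the part of these in the ratio was not tested. Summits of the strongest peaks of the 2 replicates lay a median of 53 bp apart, against 48 bp over all shared regions. They lay within 100 bp in 20 of the 28, against 76.9% of all shared regions.

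**Figure D3:**
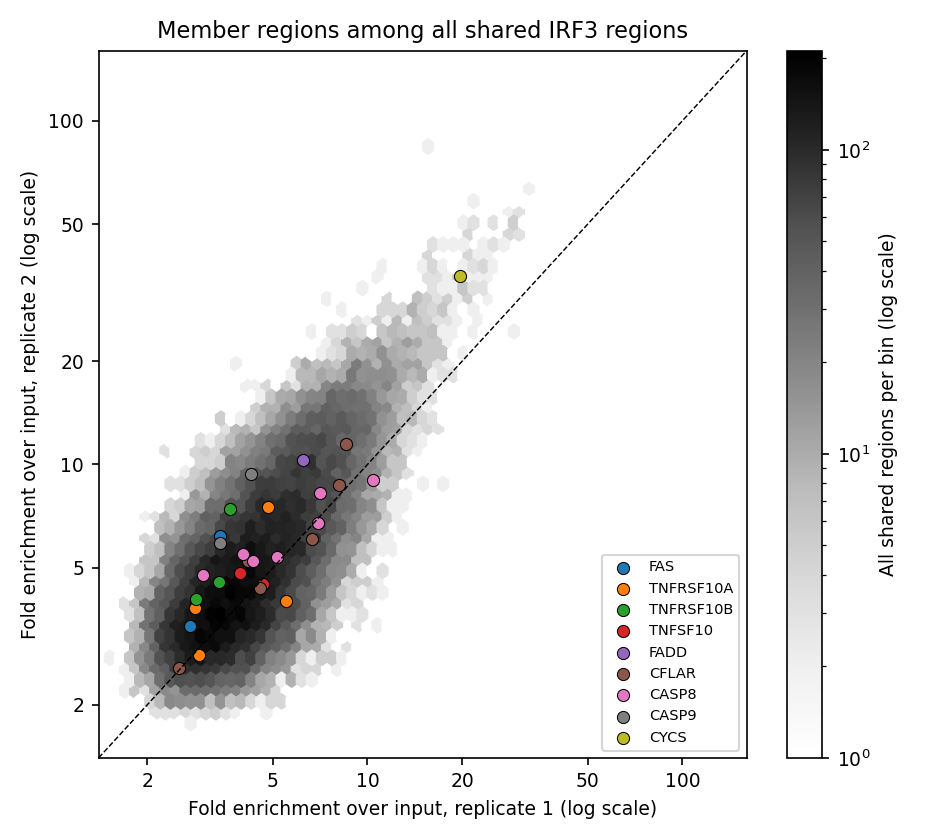
Fold enrichment over input in replicate 1 against replicate 2, both on log axes, for all 32246 shared regions (grey bins, darker for more regions) and the 28 regions of the 9 genes (coloured points). Most of the coloured points lie in the dense part of the cloud, and the CYCS point lies near its upper end.

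Some peaks in these windows were present in 1 replicate alone. There were 6 in replicate 1, of 36 peaks, with fold enrichments of 2.13 to 3.97, and 9 in replicate 2, of 39 peaks, with 1.99 to 5.86. The highest of them were the CASP9 peak, with 5.86 and a −log10 q of 20.4, and the TNFRSF10B peak, with 4.94, against a median of 4.94 in replicate 2 over all shared regions. In replicate 1, 1 of them lay 490 bp from the second listed start of CFLAR, with 2.13, which would have given CFLAR a start region had this library been used alone. Near the limit of the windows, the CASP8 region 9.74 kb outside the span and a TNFRSF10A region 9.28 kb outside fell inside it. The nearest shared regions left out were 12.2 kb from CASP8, with 2.35 and 3.37, and 15.1 kb from CFLAR, with 5.83 and 3.49.

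Other genes of the same pathways, 43 reported here, had a shared region at a start in 32 cases (74.4%) and a strong one, with both values at least 5, in 16 (37.2%), beside the backgrounds of 51.5% and 29.4%. The adaptors, kinases and their regulators had one in 11 of 13 genes, the inhibitors of apoptosis in all 4, the mitochondrial factors in 5 of 6, the caspases in 5 of 8 and the DNA fragmentation factors in 2 of 2. The decoy and other death receptors had one in 3 of 6 and the ligands in 2 of 4, and none of these 5 was strong. The start region of CASP10, a strong one, is the last region of the CFLAR window and is counted in both lists. RIPK1, the kinase at the branch between survival and death, ranked first of these 43 with fold enrichments of 13.0 and 14.3. DIABLO, whose product relieves the inhibition of caspases, had 11.4 and 14.1. BIRC3, a ubiquitin ligase that restrains death signalling, had 12.2 and 14.0. TNFAIP3 (10.1 and 13.3) and CYLD (7.39 and 11.6), which encode deubiquitinases of the same signalling complexes, followed. XIAP, the direct caspase inhibitor, had 7.32 and 12.2, and the mitochondrial protease gene HTRA2 had 6.89 and 11.6. The caspase gene CASP2 had 6.15 and 12.9, and the end of TMEM139 lay 537 bp from that summit. Ends of other genes were also near the summits at HTRA2, where AUP1 was 108 bp away and the HTRA2 start 193 bp, and at DIABLO, where LOC128125816 was 450 bp away. Lowest in rank of the 32 was BIRC5, counted among the inhibitors, with 2.14 in replicate 1 and 10.7 in replicate 2.

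Caspase and death receptor genes of that list without a shared region at a start were CASP1, CASP5, CASP14, TNFRSF10C, TNFRSF11B and TNFRSF25. Their nearest shared regions were 1.56 kb away for CASP1, 12.0 kb for CASP5, 76.2 kb for CASP14, 1.91 kb for TNFRSF10C, 255 kb for TNFRSF11B and 24.1 kb for TNFRSF25. CASP1 and CASP5 encode inflammatory caspases, CASP14 is known from the differentiating epidermis, and TNFRSF10C and TNFRSF11B encode decoy receptors of TRAIL. A gene without a listed peak had no signal past the authors' cutoff, which does not show that IRF3 was absent there.

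**Figure D4:**
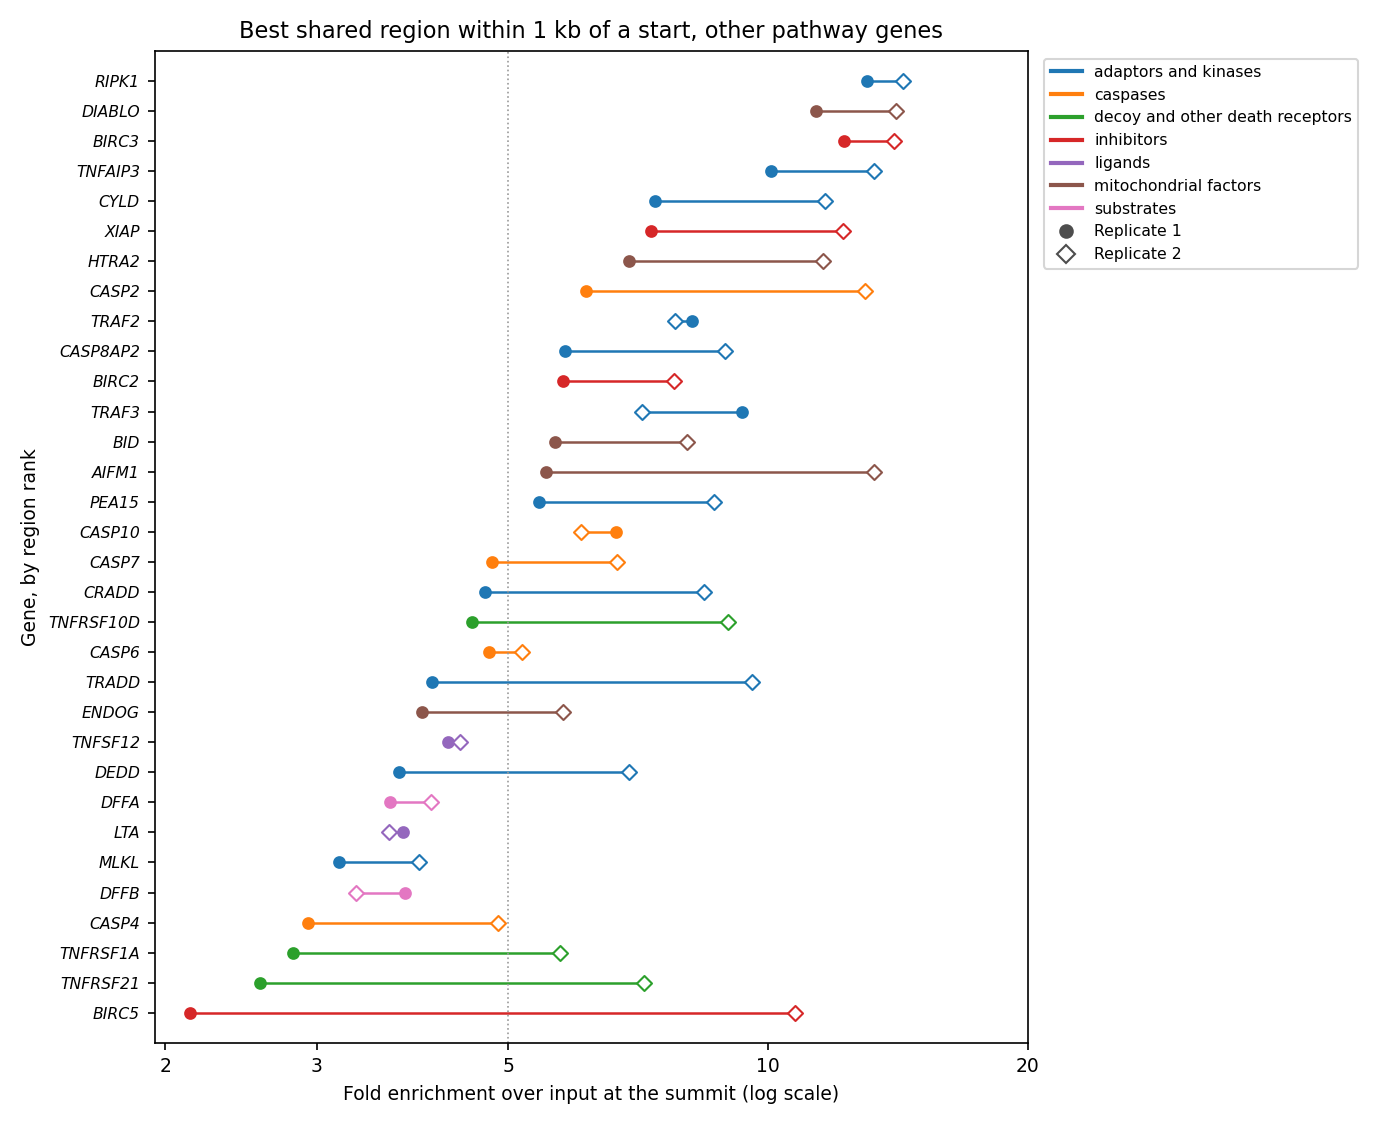
Fold enrichment over input (log axis) of the best shared region within 1 kb of a start for the 32 other pathway genes that had one, ordered by rank and coloured by role, with circles for replicate 1 and diamonds for replicate 2. RIPK1 is at the top, with 13.0 and 14.3, and the dotted line marks a fold enrichment of 5.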

How the data were processed

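IRF3 ChIP-seq peak lists of 2 libraries of untreated MM1.S cells were analysed, and the 2 inputs served as the background of the calls. MACS2 2.1.2 was run by the authors on each library alone against the input of its number, at a q-value cutoff of 0.05 and with all duplicate tags kept, per the file headers. The submitters' processing notes name GRCh38, MACS2 2.1.1, deepTools 3.3.1, SAMtools 1.2, Picard 2.6.0 and BWA 0.7.15, without roles. The deposited fold enrichment is a ratio to local input, the deposited pileup is a signal (stacked fragments at the summit), and the deposited −log10 p and −log10 q were told apart by column order and size. These are the authors' values per peak, with no error of their own, so both replicates are given. ChIP depth was 38568845 and 46474586 tags, and input depth 58025919 and 60348415.

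Peaks were merged and ranked with Python 3.11.15, pandas 2.3.3 and numpy 2.4.6, and the merging was tested on simulated peaks. A single distance from a shared region to another gene is taken from the summit of its peak with the higher fold enrichment. Gene spans and starts came from RefSeq tables of GRCh38.p14. No test was run, because there is 1 condition and the genes were chosen by name. Counts are set beside the same counts over all protein-coding genes, active or not. The text names all 9 genes, the 8 other pathway genes with the best-ranked start regions, and BIRC5, with the lowest-ranked. It also names caspase and death receptor genes without a start region, and neighbouring genes. From the list of other pathway genes, 1 gene is not reported here and is left out of its counts. The genes and lists were chosen with earlier results of these data known.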

Additional observations from a re-analysis of the deposited data

How the results depend on the processing

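Counts depended most on the strength demanded and less on the other choices. With a fold enrichment of at least 5 in both replicates, the 28 shared regions became 9, the genes with one in their window became 4 of 9, those with one at a start 3 of 9, and the other pathway genes with one at a start 16 in place of 32. All other alternatives tried kept these counts within 1.5 times. Without replicate 1 or without replicate 2, regions in the windows numbered 39 and 36, genes with one in the window 9 and 9, genes with one at a start 8 and 9, and other pathway genes 33 and 32. Across the remaining settings (overlap of 50% of the shorter peak, summits within 100 bp, a −log10 q of 10, other flanks and start distances, either gene end, regions nearer to another gene left out) regions ranged from 21 to 28 and genes with a start region from 6 to 9. Other pathway genes with a start region ranged from 25 to 35 across those settings. No paired analysis was possible because no result comes from a test. A peak under the cutoff in 1 library counts as not shared, and the part of depth in this was not tested.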
